A study of Mus musculus with 2 samples.

Results

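Cycling T cells of CT26 tumours were taken as droplet barcodes that carry T cell receptor RNA together with RNA of 4 proliferation genes. A T cell gate kept barcodes with at least 500 UMIs (unique molecular identifiers, each standing for 1 captured RNA molecule), at most 15% of them mitochondrial, at least 2 UMIs of Cd3d, Cd3e and Cd3g together, at most 1 UMI of the tumour gene Hmga2 and 0 UMIs of the macrophage receptor gene Csf1r. Within the gate, cycling barcodes had at least 4 UMIs of Mki67, Top2a, Birc5 and Hist1h1b together. They numbered 154 of 1233 gated barcodes, out of 32516 barcodes in all: 62 of 568 gated barcodes in the vehicle library and 92 of 665 in the WQ-2101 library. They were compared with the gated barcodes that had 0 UMIs of the 4 genes (366 in vehicle and 407 in WQ-2101), called 0-UMI barcodes here. The cells were thus selected on the measured UMIs of these 4 genes, so every difference between cycling and 0-UMI barcodes is a description and carries no test.

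The tumours came from wild-type BALB/c mice, 5 weeks of age, with CT26 colorectal carcinoma cells of the same strain implanted under the skin. Once tumours measured about 100 mm³, mice were given vehicle or 20 mg/kg of WQ-2101, by the series title an inhibitor of PHGDH, into the abdominal cavity once a day, and tumours were taken on day 17 after implantation. Whole tumour suspensions were sequenced with a 3' droplet method, without a recorded sort, as 1 library per treatment, and both carry the label batch 1. How many mice each library holds is not stated in the labels. Without replicates there is no error between samples and no p-value, and all 95% intervals cover counting error only.

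Resting T cells sit outside the cell cycle, and those that meet antigen with costimulation enter it and divide rapidly. The cycle runs from growth and licensing of replication origins, through copying of DNA with its nucleotide and histone supply, to condensation of chromosomes and their separation by the spindle. Mki67 coats mitotic chromosomes, Top2a untangles copied DNA, Birc5 (survivin) is a subunit of the chromosomal passenger complex that steers Aurora kinase B, and Hist1h1b is a linker histone made with DNA replication. Dividing cells also draw on serine, made from a glycolytic intermediate by PHGDH, PSAT1 and PSPH, to supply carbon units for nucleotides.

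Many promoters of genes expressed late in the cycle carry the letters TTTGAA near the start of transcription (the cell cycle homology region, bound by the DREAM complex) and CCAAT boxes (bound by NF-Y). Those of Mki67 and Top2a, which chose the cells, and of Cdk1 and Ube2c, named here for these letters and not part of the choice, are printed because all of these genes were read together in the cycling barcodes. Each is the 250 bases before the transcription start in RefSeq, build GRCm38.p6, on the strand of the gene from 5' to 3'. Capitals mark TTTGAA or its reverse TTCAAA, and CCAAT or its reverse ATTGG, with an overlapping pair of CCAAT letters in Ube2c shown as 1 run. Mki67 lies at chr7:135716380-135716629 on the minus strand, Top2a at chr11:99024190-99024439 on the minus strand, Cdk1 at chr10:69352913-69353162 on the minus strand and Ube2c at chr2:164769679-164769928 on the plus strand.
Mki67: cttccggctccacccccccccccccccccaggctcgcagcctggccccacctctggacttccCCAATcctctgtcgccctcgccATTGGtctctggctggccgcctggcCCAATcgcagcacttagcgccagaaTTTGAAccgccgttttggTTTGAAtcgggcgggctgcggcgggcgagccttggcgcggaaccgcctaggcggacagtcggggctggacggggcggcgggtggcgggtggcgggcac
Top2a: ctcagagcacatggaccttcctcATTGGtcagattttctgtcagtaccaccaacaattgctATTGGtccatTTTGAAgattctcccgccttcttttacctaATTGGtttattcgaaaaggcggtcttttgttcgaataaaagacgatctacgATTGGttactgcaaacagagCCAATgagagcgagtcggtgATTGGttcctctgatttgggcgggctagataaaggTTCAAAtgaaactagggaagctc
Cdk1: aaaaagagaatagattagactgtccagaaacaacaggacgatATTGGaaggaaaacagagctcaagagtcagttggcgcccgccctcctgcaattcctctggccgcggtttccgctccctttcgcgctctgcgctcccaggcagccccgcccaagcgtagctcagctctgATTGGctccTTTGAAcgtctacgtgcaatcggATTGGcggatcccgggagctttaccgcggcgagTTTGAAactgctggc
Ube2c: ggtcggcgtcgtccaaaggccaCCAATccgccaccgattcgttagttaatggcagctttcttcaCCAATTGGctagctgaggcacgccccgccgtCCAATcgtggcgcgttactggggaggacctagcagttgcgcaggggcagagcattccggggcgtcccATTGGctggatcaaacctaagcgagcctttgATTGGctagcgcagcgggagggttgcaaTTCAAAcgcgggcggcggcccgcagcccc
Mki67, Top2a and Cdk1 each held 2 copies of TTTGAA on either strand and Ube2c held 1, while CCAAT was found 3 times in Mki67 and Cdk1 and 6 times in Top2a and Ube2c. The Hist1h1b window held TTTGAA 1 time and CCAAT 3 times, and the letters of neither were in the Birc5 window. TTTGAA was present in 16.3% of all 27025 RefSeq windows of this length, and at least 2 CCAAT in 10.5%. In the 4698 windows of genes measured here, these shares were 10.5% and 14.9%. Among all 80 genes of the mitosis and spindle lists used below, whether measured here or not, 70 had a window. Of these, 31.4% held TTTGAA and 38.6% at least 2 CCAAT. Both features stood together in 14.3% of them, against 5.13% of 39 windows from the full origin licensing and replication fork lists and 1.62% of all windows. No interval was computed for these shares. In those 39 windows TTTGAA alone was present in 12.8% and at least 2 CCAAT in 35.9%, the latter share close to that of the mitosis and spindle genes. A match is a description of letters and not a measured binding site.

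The T cell label held for the receptor genes. Trac, the constant chain of the alpha receptor, had a UMI in 52 of 62 vehicle and 77 of 92 WQ-2101 cycling barcodes, against 1.56% and 1.46% of tumour barcodes (those with at least 3 UMIs of Hmga2), which had median depths of 16655 and 13364 UMIs. Its level was 397 CPM (the summed UMIs of a gene in a class, scaled to the same fixed total of UMIs in every class) in vehicle and 445 CPM in WQ-2101 cycling barcodes, and 394 and 398 CPM in 0-UMI barcodes. All 15 T cell identity genes were measured in both libraries, and none differed 1.5-fold between cycling and 0-UMI barcodes in both. Cd3d, Cd3e and Cd3g are among the 15, and the gate required them in both classes, so they say nothing further about the label. The list leaned lower in cycling barcodes, with median log2 ratios of -0.27 in vehicle and -0.37 in WQ-2101. Cycling barcodes were deeper than the rest: their median was 6468.5 UMIs in vehicle and 5112.5 in WQ-2101, against 2700 and 2301 in 0-UMI barcodes. A fixed count of 4 UMIs is reached more readily at greater depth.

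**Figure D1:**
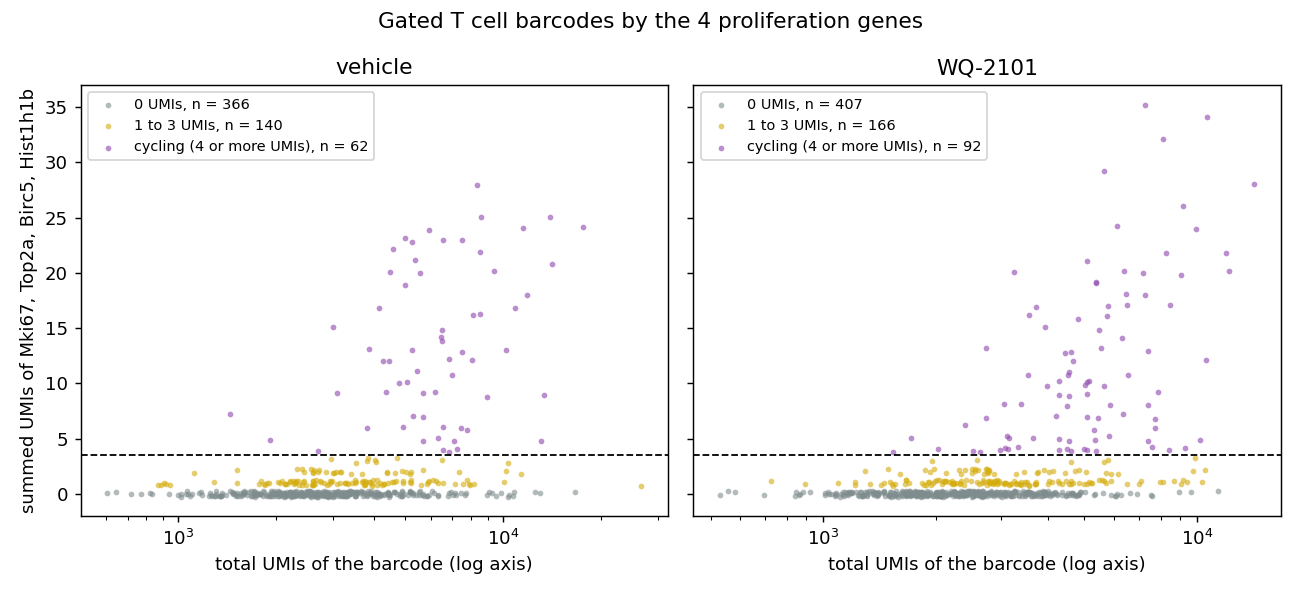
Each point is 1 gated T cell barcode, by its total UMIs (horizontal log axis) and its summed UMIs of Mki67, Top2a, Birc5 and Hist1h1b (vertical axis, with points spread slightly so that they do not overlap), in the vehicle library (left) and the WQ-2101 library (right). The dashed line separates the 62 vehicle and 92 WQ-2101 cycling barcodes from those with 0 or with 1 to 3 UMIs, and few barcodes lie next to it in the vehicle library.

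The summed count of the 4 genes ran from 4 to 28 UMIs in vehicle cycling barcodes (median 12.5) and from 4 to 35 in WQ-2101 ones (median 10). Just under the threshold, 9 vehicle and 6 WQ-2101 barcodes had 3 UMIs. Just above it, 4 vehicle and 17 WQ-2101 barcodes had 4 UMIs. Top2a was the most often detected of the 4, with a UMI in 58 of 62 and 85 of 92 barcodes, and all 4 genes were detected together in 35 of 62 (56.5%) and 49 of 92 (53.3%).

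Some cycling barcodes also held RNA of other cells. Over the libraries, 73 barcode sequences occurred in both, and 1 WQ-2101 cycling barcode was among them. A set of 59 tumour-rich genes, chosen after the data were seen as at least 200 CPM in tumour barcodes and at least 8-fold above 0-UMI T cell barcodes in both libraries, was summed in each barcode. It stayed at a median of 4.33% of its tumour cell level in vehicle and 5.94% in WQ-2101 cycling barcodes. In the WQ-2101 library 14 of the 92 exceeded 20% of the tumour level, with a median of 60.9% among them, against 1 of 62 in vehicle. Those 14 held 559 CPM of the 3 Cd3 genes, against 1975 CPM in the other WQ-2101 cycling barcodes. Summed RNA of 13 myeloid genes exceeded 2000 CPM in 8 vehicle and 6 WQ-2101 cycling barcodes. The part of these barcodes in each result was measured by leaving out both kinds, which kept 53 vehicle and 77 WQ-2101 cycling barcodes. Below, barcodes holding RNA of other cells means these 2 kinds only. Genes of dendritic cells, B cells and further cell types were not used for it, so their RNA may remain. The gate itself removed 59.5% of vehicle and 69.3% of WQ-2101 barcodes that had at least 2 Cd3 UMIs and at least 4 of the proliferation genes, against 15.1% and 13.6% of those with 0. The removed barcodes with at least 4 had medians of 19053 and 19746 UMIs.

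**Figure D2:**
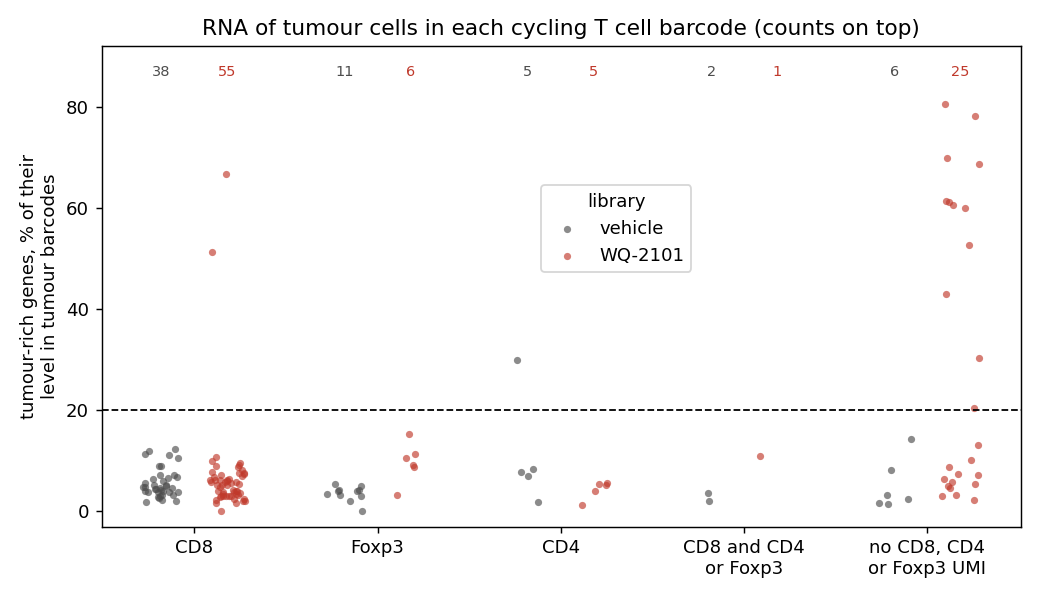
Each point is 1 cycling T cell barcode, with its summed level of the 59 tumour-rich genes as a percentage of their level in tumour barcodes (vertical axis), by lineage genes detected (horizontal axis) and library (colour), and the number of barcodes on top. The dashed line is 20%; of the 14 WQ-2101 points above it, 12 are among the 25 barcodes without a UMI of Cd8a, Cd8b1, Cd4 or Foxp3, and the single vehicle point above it has Cd4.

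The first comparison asked whether cycling cells were a larger share of T cells after WQ-2101. They made up 10.9% of gated barcodes in vehicle (exact Clopper-Pearson 95% interval 8.47 to 13.8) and 13.8% in WQ-2101 (11.3 to 16.7), a ratio of 1.27 whose interval, 0.909 to 1.78, includes equality. Without barcodes holding RNA of other cells the shares were 10.1% of 524 and 13.3% of 579, with a ratio of 1.31 (0.915 to 1.90). The 2 kinds moved it in opposite directions. Leaving out only barcodes with tumour RNA lowered the ratio to 1.16 (0.816 to 1.64). Leaving out only those with myeloid RNA raised it to 1.39 (0.975 to 1.99). With every gated barcode thinned to 2000 UMIs and at least 2 UMIs of the 4 genes asked for, the shares were 12.04% of 465 and 19.5% of 476, a ratio of 1.62 (1.15 to 2.30). That thinned comparison left out 103 vehicle and 189 WQ-2101 barcodes with fewer UMIs, and it still held the barcodes with tumour RNA. At a threshold of 6 UMIs the ratio was 1.05 (0.718 to 1.54). Neutrophils, which do not divide once mature, give a level of stray RNA: at least 4 UMIs of the 4 genes were found in 0 of 103 vehicle and 2 of 57 WQ-2101 neutrophil barcodes (median depths 1049 and 968 UMIs). Between 1 and 3 UMIs were found in 11.7% and 24.6% of neutrophil barcodes, against 24.6% and 24.96% of gated T cell barcodes. B cells, which can divide, reached 4 UMIs in 1 of 11 barcodes in vehicle and 8 of 250 in WQ-2101. By the exact interval, the 0 of 103 neutrophil barcodes allows a share of up to 3.52% in vehicle. The 2 of 57 allows up to 12.1% in WQ-2101, beside the 13.8% of gated T cell barcodes there. Neutrophil barcodes had to lack Hmga2 UMIs, whereas the T cell gate allowed 1, so the level of stray tumour RNA may differ. Among tumour barcodes the share was 54.8% in vehicle and 56.9% in WQ-2101.

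CD8 T cells were the most numerous lineage among cycling barcodes in both libraries. With Cd8a or Cd8b1 and no Cd4 or Foxp3 UMI there were 38 of 62 in vehicle (61.3%, interval 48.1 to 73.4) and 55 of 92 in WQ-2101 (59.8%, 49.0 to 69.9). Foxp3, the transcription factor of regulatory T cells, was found without CD8 genes in 11 vehicle (17.7%, 9.20 to 29.5) and 6 WQ-2101 cycling barcodes (6.52%, 2.43 to 13.7). Cd4 alone was found in 5 and 5, a mixture in 2 and 1, and no lineage gene in 6 and 25. Of those 25, 13 held RNA of other cells. Without such barcodes, CD8 made up 58.5% of 53 and 68.8% of 77, Foxp3 20.8% and 7.79%, and no lineage gene 11.3% and 15.6%.

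Read from the lineage, 13.1% of vehicle and 17.1% of WQ-2101 CD8 barcodes were cycling, a ratio of 1.30 (0.844 to 2.02). Among Foxp3 barcodes it was 11 of 48 (22.9%) and 6 of 36 (16.7%), a ratio of 0.727 (0.221 to 2.15). Among barcodes with Cd4 alone it was 5 of 65 in each library. The intervals of all 3 ratios include equality, so a treatment difference in these lineages was not detectable at these numbers. Among barcodes with no lineage gene it was 6 of 159 (3.77%) and 25 of 236 (10.6%), a ratio of 2.81 (1.12 to 8.37), beside the tumour RNA in 12 of those 25.

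Depth sets much of what a single gene shows here. At full depth Cd8a had a UMI in 61.3% of vehicle cycling and 39.1% of 0-UMI barcodes, and in 52.2% and 35.9% in WQ-2101. In tumour barcodes, which should lack it, it had one in 0.601% and 0.742%. After thinning to 2000 UMIs the Cd8a shares were 36.7% in cycling and 37.9% in 0-UMI barcodes of vehicle, a difference of -1.19 percentage points (Newcombe interval -13.7 to 12.6). In WQ-2101 they were 41.1% and 37.5%, a difference of 3.66 points (-7.73 to 15.5). Thinned Foxp3 shares were 8.33% and 5.71% in vehicle, a difference of 2.62 points (-3.18 to 12.6), and 2.22% and 2.79% in WQ-2101, a difference of -0.57 points (-3.84 to 5.14). Thinned Cd4 shares were 11.7% and 12.9% in vehicle, and 3.33% and 9.16% in WQ-2101, the latter a difference of -5.83 points (-10.6 to 0.88). At 2000 UMIs none of these intervals excludes a difference of 0. At 4000 UMIs, which leaves out more barcodes, the Foxp3 difference in vehicle was 15.6 points (5.43 to 27.9), an interval that excludes 0. The gamma-delta receptor gene Trdc had no UMI in any cycling barcode, which by the exact interval allows a share of barcodes with a UMI of up to 5.78% in vehicle and 3.93% in WQ-2101. It had one in 17 of 366 (4.64%) and 9 of 407 (2.21%) 0-UMI barcodes, so a difference was not detectable within either library alone. For this gene the libraries were not joined, and the cycling barcodes were the deeper class.

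The T cell receptor beta chain uses 1 of 2 constant genes, Trbc1 or Trbc2, whose near-identical copies can share reads. Among cycling barcodes with UMIs of only 1 of them, it was Trbc1 in 4 and Trbc2 in 24 in vehicle, and Trbc1 in 4 and Trbc2 in 36 in WQ-2101. The Trbc1 share is 14.3% (4.03 to 32.7) and 10% (2.79 to 23.7), against 20% and 17.2% in 0-UMI barcodes.

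Lineages differed in what they made while cycling. In vehicle CD8 cycling barcodes Gzmb, a granzyme that kills target cells, stood at 459 CPM (exact Poisson interval 381 to 549), and in WQ-2101 ones at 756 (663 to 859). In Foxp3 cycling barcodes Gzmb was 284 CPM (182 to 422) in vehicle, an interval overlapping the CD8 one, and 174 (63.9 to 379) in WQ-2101. Gzma was 433 CPM (357 to 520) and 976 (870 to 1092) in CD8 cycling barcodes. In Foxp3 cycling barcodes Gzma had 0 UMIs in vehicle and 1 UMI in WQ-2101, whereas Ikzf2 (Helios) was 2508 CPM and 2408 CPM, against 364 and 325 CPM in the CD8 ones. Tnfrsf4 (OX40) was 958 and 1856 CPM in Foxp3 and 111 and 92.5 CPM in CD8 cycling barcodes. Among cycling barcodes with no lineage gene, 6 in vehicle and 25 in WQ-2101, Tnfrsf4 was 957 and 102 CPM and Ikzf2 1142 and 460. The vehicle Tnfrsf4 level there was thus as high as in Foxp3 barcodes. Klrg1, a receptor of short-lived effector and tissue regulatory cells, was 248 and 551 CPM in Foxp3 cycling barcodes, and 0 and 19.1 CPM in CD8 ones. In those with no lineage gene Klrg1 was 30.9 and 14.6 CPM. These classes were drawn with Cd8a, Cd8b1, Cd4 and Foxp3, so UMIs of those genes say nothing further about them, and the Foxp3 values rest on 11 and 6 barcodes.

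Across the transcriptome, 509 of 5796 measured genes (8.78%) were at least 1.5-fold higher in cycling than in 0-UMI barcodes in both libraries, and 222 (3.83%) were lower. A gene was measured with a mean of at least 20 CPM over both classes, and fold changes are log2 ratios of CPM plus 5, which understates the change of low genes. The median over all measured genes was 0.02 in vehicle and 0.07 in WQ-2101. Without barcodes holding RNA of other cells the counts were 549 (9.71%) and 205 (3.62%) of 5656 genes. In CD8 barcodes alone they were 476 (8.62%) and 204 (3.69%) of 5521. Within 1 library, 14.8% of genes were higher and 10.7% lower in vehicle, and 18.1% and 10.4% in WQ-2101. The contrast is that of the rule itself, so these counts describe the cells that the 4 genes pick out.

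**Figure D3:**
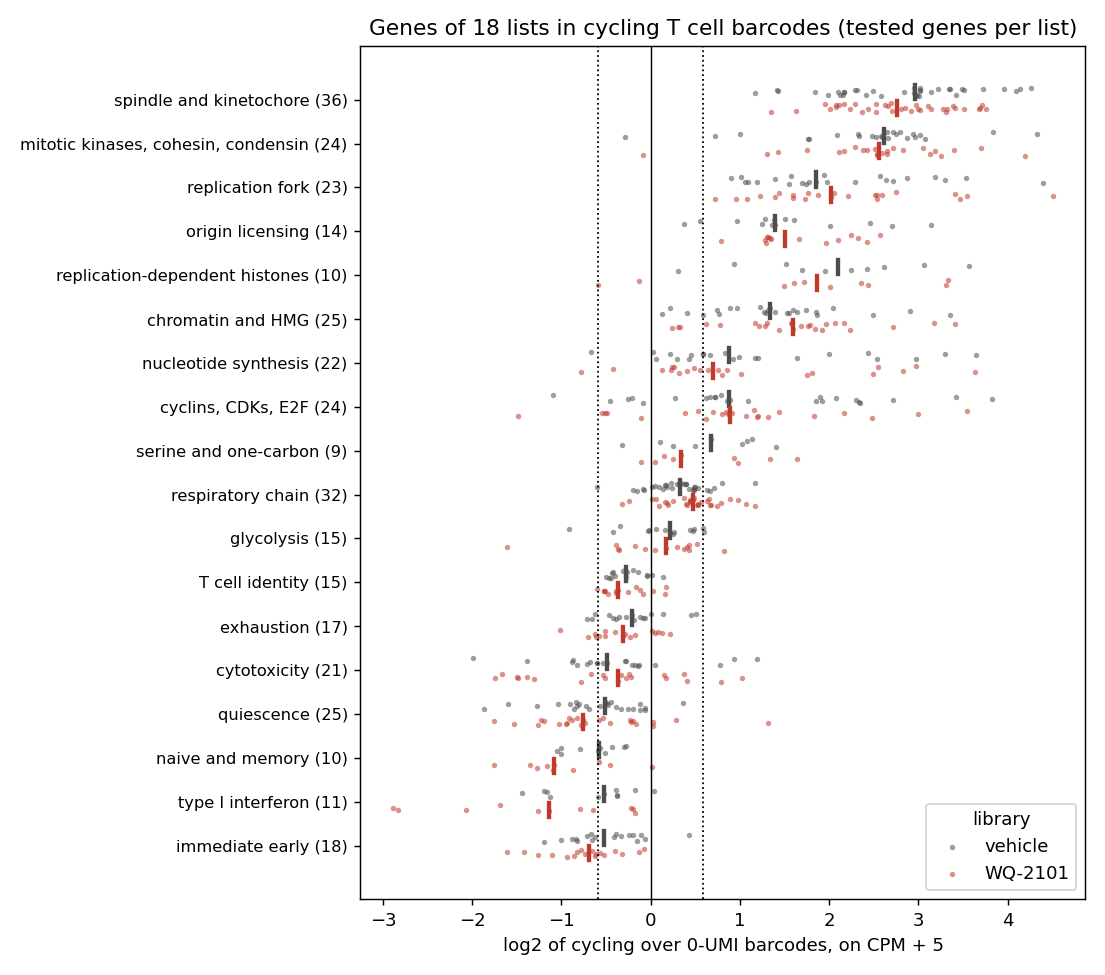
Each point is 1 measured gene of a list, with its log2 ratio of cycling over 0-UMI barcodes on CPM plus 5 (horizontal axis) in the vehicle (grey) or WQ-2101 library (red). Thick bars are list medians, dotted lines 1.5-fold, and the number after each list counts its measured genes. All 36 spindle and kinetochore genes lie right of the 1.5-fold line in both libraries, though most passed the minimum only through cycling barcodes. The medians of the T cell identity genes lie below 0, at -0.27 in vehicle and -0.37 in WQ-2101.

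Mitosis genes stood furthest apart. Of 46 spindle and kinetochore genes 36 were measured, and all 36 were higher in both libraries, with medians of 2.97 in vehicle and 2.76 in WQ-2101. Cycling barcodes count towards the minimum of 20 CPM, and averaged over 0-UMI barcodes alone 9 of the 46 reached it. Most of these genes were thus measured through the class where they are high, so the count was largely set by the filter and the rule. Nusap1, which bundles spindle microtubules, was 8.56 CPM in 0-UMI and 227 in cycling barcodes of vehicle, and 13.5 and 231 CPM in WQ-2101. Kif4, a kinesin motor on condensed chromosomes, was 1.71 and 124 CPM in vehicle and 4.8 and 121 in WQ-2101. Stmn1, which frees tubulin from microtubules, was 86.5 and 1200.3 CPM, then 93.2 and 1120 CPM, with a UMI in 60 of 62 and 89 of 92 cycling barcodes. The kinesins Kif11 and Cenpe were 177 and 140 CPM in vehicle and 187 and 171 CPM in WQ-2101 cycling barcodes, against 7.71 to 11.99 CPM in 0-UMI ones.

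Of 34 mitotic kinase, cohesin and condensin genes 24 were measured and 23 were higher, with medians of 2.62 and 2.56. Averaged over 0-UMI barcodes alone, 7 of the 34 reached 20 CPM, so the same limit holds. Cdca8 (borealin), which works with Birc5 in the passenger complex and was not in the rule, went from 8.56 to 269 CPM in vehicle, a ratio of 31.4 (exact interval 16.4 to 67.1), and from 10.6 to 279 in WQ-2101, or 26.4-fold (14.3 to 54.1). Cdca3, which targets the mitosis inhibitor Wee1 for destruction, was 5.99 and 152 CPM, then 7.69 and 160 CPM. Pttg1 (securin) was the exception, at 60.8 CPM in 0-UMI and 49.0 in cycling barcodes of vehicle, and 63.4 and 59.7 in WQ-2101.

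DNA replication genes were higher by a smaller margin. Of 32 replication fork genes 23 were measured, and all 23 were at least 1.5-fold higher in both libraries, with medians of 1.86 and 2.03. Of 19 origin licensing genes 14 were measured and 12 were higher, with medians of 1.39 and 1.51. Averaged over 0-UMI barcodes alone, 10 of the 32 fork genes reached 20 CPM, so the fork count too was largely set by the filter. Pclaf, the PCNA-associated factor, had the highest log2 ratio outside the rule, taking the smaller of both libraries. It was 17.98 CPM in 0-UMI and 481 in cycling barcodes of vehicle, and 17.3 and 501 in WQ-2101. Those are ratios of 26.8 (17.0 to 44.1) and 29.0 (17.97 to 49.7). Brca1, which repairs broken forks, was 6.85 and 112 CPM, then 3.84 and 98.3 CPM. Gmnn (geminin), which blocks a second round of licensing, was 30.8 and 191, then 27.9 and 191 CPM. Mcm2 and Gins4, parts of the replicative helicase, did not reach 1.5-fold on CPM plus 5 in vehicle (33.4 and 51.4 CPM, and 24.0 and 32.7 CPM).

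Nucleotide supply was mixed: 11 of 22 measured genes were higher and 1, Ctps2, was lower, beside 8.78% and 3.83% of all measured genes. Without RNA of other cells 11 of 23 were higher and none was lower. Rrm2, the ribonucleotide reductase subunit that is made in S phase, was 7.71 and 154 CPM in vehicle and 7.69 and 152 in WQ-2101, and Tk1, which salvages thymidine, was 8.56 and 128, then 10.6 and 82.9 CPM. Of 45 replication-dependent histone genes, whose RNA mostly lacks the poly(A) tail that 3' methods capture and whose near-identical copies can share reads, 10 were measured and 8 were higher. Among chromatin genes 22 of 25 were higher, including the histone chaperone Asf1b (6.85 and 117, then 6.73 and 119 CPM) and the variant histone H2afx (36.8 and 308, then 25.9 and 274 CPM). The 3 not reaching 1.5-fold in both libraries were Eed, H3f3a and H3f3b. Averaged over 0-UMI barcodes alone, 19 of 28 nucleotide, 5 of 45 histone and 23 of 27 chromatin genes reached 20 CPM. The counts of higher genes in these lists were thus partly set by the filter, most of all for histones.

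Cyclins split by their place in the cycle. Of 24 measured genes of the cyclin, CDK and E2F list 16 were higher and 1 lower, beside 8.78% and 3.83% of all measured genes. Averaged over 0-UMI barcodes alone, 16 of the 33 listed genes reached 20 CPM, so the count of higher genes was partly set by the filter. Ccna2, the cyclin of S phase and G2, was 3.43 and 114 CPM in vehicle and 4.8 and 110 in WQ-2101. Ccnb2 and Ccnb1, which drive mitosis, were 9.42 and 149, and 4.28 and 42.0 CPM in vehicle, and 10.6 and 119, and 7.69 and 52.0 in WQ-2101. The G1 cyclin Ccnd3 was the lower one, at 235 and 107 CPM in vehicle and 359 and 125 in WQ-2101. Ccnd2 was 149 and 124, then 175 and 123 CPM. The CDK inhibitor Cdkn1b (p27), high in resting cells, was 91.6 and 65.4, then 104 and 69.4 CPM, whereas Cdkn2c (p18) was 5.99 and 49.0, then 12.5 and 38.5 CPM.

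Outside all lists, the 8 genes furthest above 0-UMI barcodes were Fbxo5, Cenpp, Shcbp1, Esco2, Neil3, Bard1, Spag5 and Brip1. Fbxo5 (Emi1), which restrains the anaphase-promoting complex, was 2.57 and 93.4 CPM in vehicle and 1.92 and 86.7 in WQ-2101. Esco2, which acetylates cohesin during replication, was 0.86 and 56.04 CPM in vehicle, and 0 and 46.2 in WQ-2101. Bard1 and Brip1, both partners of Brca1, were 4.28 and 58.4, and 3.43 and 65.4 CPM in vehicle, and 3.84 and 69.4, and 4.8 and 59.7 CPM in WQ-2101. The rule read none of these genes, but they were picked for the highest ratios, so low values in 0-UMI barcodes follow from that choice.

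UMIs of mitosis genes were set against those of replication genes in each cycling barcode. This balance depends on how many genes each list holds and how abundant they are. After thinning to 2000 UMIs, the summed UMIs of 75 mitosis and spindle genes (tubulins and Stmn1 left out) ran from 2 to 35 in vehicle, with a median of 14. They ran from 0 to 37 in WQ-2101, with a median of 16, against a median of 2 in 0-UMI barcodes of both libraries. The 51 licensing and fork genes had medians of 9 and 8 UMIs, again against 2. Mitosis UMIs exceeded replication UMIs in 39 of 60 vehicle (interval 51.6% to 76.9%) and 67 of 90 WQ-2101 barcodes (74.4%, 64.2 to 83.1), and in 34 of 51 (66.7%) and 54 of 76 (71.1%) without RNA of other cells. In 0-UMI barcodes they did so in 32.9% in vehicle and 41.4% in WQ-2101. The rule holds Top2a, Birc5 and Mki67, which peak late in the cycle, so the balance was partly set by the choice of cells. The intervals of the libraries overlap.

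**Figure D4:**
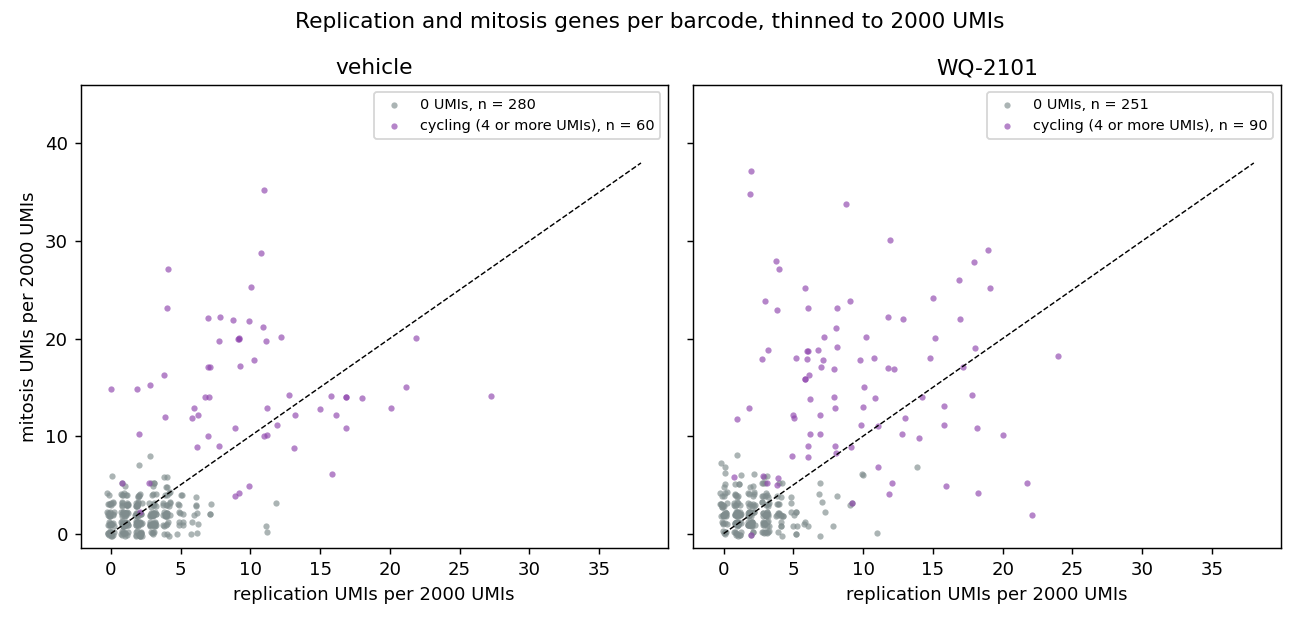
Each point is 1 T cell barcode thinned to 2000 UMIs, by its UMIs of 51 replication genes (horizontal axis) and 75 mitosis genes (vertical axis), with small random offsets, in vehicle (left) and WQ-2101 (right). The dashed line marks equal counts; 39 of 60 vehicle and 67 of 90 WQ-2101 cycling barcodes lie above it, and the 0-UMI barcodes crowd near the origin.

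Genes of serine synthesis and one-carbon metabolism were higher in cycling barcodes in part. Of 25 genes 9 were measured in both libraries. Of these 4 were at least 1.5-fold higher in both, beside 8.78% of all measured genes, and none was lower. The list medians were 0.68 in vehicle and 0.34 in WQ-2101. Phgdh, the first enzyme of serine synthesis and by the title the target of WQ-2101, was 75.4 CPM in 0-UMI and 124 in cycling barcodes of vehicle, a ratio of 1.64 (1.15 to 2.34). In WQ-2101 barcodes Phgdh was 93.2 and 183 CPM, 1.96 times as high (1.46 to 2.63). Thinned to 2000 UMIs, a Phgdh UMI was found in 18.3% of cycling and 13.2% of 0-UMI barcodes of vehicle, and in 31.1% and 15.1% in WQ-2101, beside 39.7% and 38.2% of tumour barcodes, which hold the gene themselves.

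Psat1, the next enzyme, was 16.3 and 51.4 CPM in vehicle and 22.1 and 63.6 in WQ-2101. Psph, the last, was 27.4 and 60.7, then 29.8 and 63.6 CPM. Mthfd2, the mitochondrial folate enzyme of dividing cells, was 42.8 and 95.7 CPM in vehicle, a ratio of 2.24 (1.44 to 3.45), and 44.2 and 148 in WQ-2101 barcodes, or 3.36-fold (2.30 to 4.95). Shmt2 and Shmt1, which take the carbon unit from serine, were below the expression minimum. They were 8.56 and 28.0, and 0.86 and 11.7 CPM in vehicle, and 10.6 and 30.8, and 2.88 and 23.1 in WQ-2101, on 5 to 16 UMIs in cycling barcodes.

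Between libraries, Phgdh in cycling barcodes was 1.48-fold higher in WQ-2101 (1.05 to 2.11), and 1.21-fold (0.833 to 1.77) without RNA of other cells, where it was 142 and 172 CPM. By lineage it was 107 CPM in vehicle and 182 CPM in WQ-2101 among CD8 cycling barcodes, and 260 and 174 CPM among Foxp3 ones. Mthfd1l, another mitochondrial folate enzyme, was 107 CPM in vehicle and 54.0 CPM in WQ-2101 cycling barcodes, against 46.2 and 48.0 CPM in 0-UMI ones, a ratio between cycling barcodes of 0.502 (0.302 to 0.821). Mthfd2 was 1.55-fold higher (1.05 to 2.32). In CD8 cycling barcodes alone 5 of 15 genes of the list were higher in WQ-2101, Phgdh among them but not Mthfd2, and 3 were lower. The list median was 0.25, and over all genes 15.4% were higher and 13.5% lower in these barcodes.

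**Figure D5:**
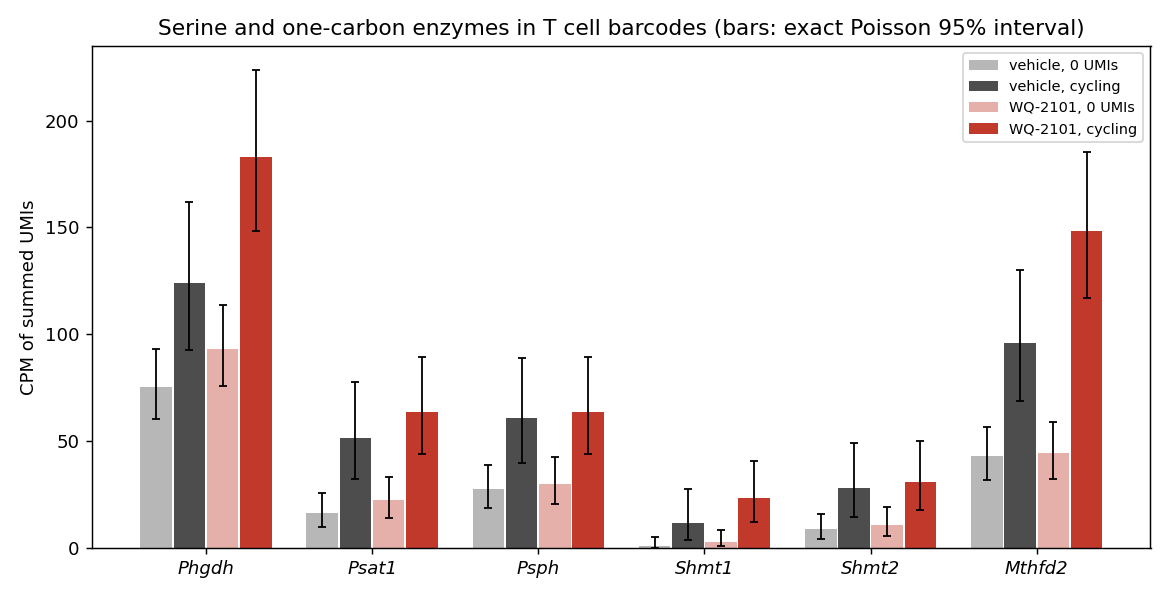
Bars give the CPM of summed UMIs (vertical axis, from 0) of 6 serine and one-carbon genes in 0-UMI (pale) and cycling (full colour) T cell barcodes of the vehicle (grey) and WQ-2101 (red) libraries, with exact Poisson 95% intervals that cover counting error only. The cycling bar is the higher one for each gene in both libraries, from 124 against 75.4 CPM for Phgdh in vehicle to 148 against 44.2 for Mthfd2 in WQ-2101.

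The counts of other metabolic lists stand beside 8.78% higher and 3.83% lower over all measured genes. None of 15 glycolysis genes reached 1.5-fold in both libraries, with medians of 0.22 and 0.18; Ldha was 457 and 696 CPM in vehicle and 474 and 684 in WQ-2101. Of 32 respiratory chain genes 4 were higher, among them Cyc1 (51.4 and 121, then 68.2 and 118 CPM). Of 26 ribosome biogenesis and Myc target genes 4 were higher, among them Nolc1 and Gar1. Of 16 cholesterol synthesis genes 1, Idi1, was higher in both libraries, with list medians of 0.24 and 0.72. In CD8 barcodes alone 1 of 16, Mvd, was higher, with medians of 0.19 and 0.26, beside 8.62% of all genes. None of 9 amino acid transporter genes was higher or lower in both libraries, and of 11 targets of the stress factor ATF4 only Ppp1r15a differed, being lower.

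Among effector and resting-state genes some were lower in cycling barcodes, and most did not reach 1.5-fold in both libraries. Over all measured genes 3.83% were lower and 8.78% higher. Ccl5, a chemokine of effector and memory T cells, was abundant and lower in both libraries: it went from 6053 to 1523 CPM in vehicle, a ratio of 0.252 (0.232 to 0.273), and from 4796 to 1424 CPM in WQ-2101, with the ratio at 0.297 (0.274 to 0.321). Ccl4 was 820 and 311, then 924 and 289 CPM. In all, 4 of 21 cytotoxicity genes were lower and 1, Gzmf, was higher (265 and 511, then 466 and 954 CPM). Gzmf is 1 of a cluster of similar granzymes that can share reads, and its UMIs lay in 5 vehicle and 10 WQ-2101 cycling barcodes, with 57.5% and 36.6% of them in 1 barcode each. Prf1 (perforin) was 110 and 88.7, then 106 and 86.7 CPM.

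Of 25 quiescence genes 8 were lower and none was higher, beside 3.83% and 8.78% of all measured genes, with medians of -0.51 and -0.76. In CD8 barcodes alone 2 of 23 were lower (Klf3 and Foxp1), beside 3.69% of all genes. Klf3, a repressor in resting lymphocytes, was 64.2 and 14.0 CPM in vehicle and 137 and 55.9 in WQ-2101. Of 10 naive and memory genes 4 were lower, including Satb1, a chromatin organiser (398 and 196, then 830 and 322 CPM), and Bach2, which holds back effector programmes (265 and 126, then 415 and 183 CPM). In CD8 barcodes alone 2 of 9 of these genes were lower, Bach2 and Ccr7. Tcf7, a factor of memory and stem-like T cells, was 54.8 and 44.4 CPM in vehicle and 110 and 42.4 in WQ-2101. The survival gene Bcl2 was 450 and 201, then 546 and 260 CPM.

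The next counts stand beside 3.83% lower and 8.78% higher over all measured genes. Of 11 type I interferon genes 5 were lower, among them Isg15 (230 and 100.4, then 248 and 73.2 CPM). Ifih1, a sensor of double-stranded RNA outside that list, was 242 and 67.7, then 276 and 80.9 CPM. Of 18 immediate early genes, which dissociation of tissue can also induce, 7 were lower, including Jun (495 and 245, then 547 and 299 CPM). In CD8 barcodes alone 2 of 18 were lower, beside 3.69% of all genes. The part of dissociation in this was not tested. Among 17 exhaustion genes 3 were lower (Nr4a1, Nr4a3 and Entpd1) and none was higher. Without RNA of other cells 2 of 17 were lower, Nr4a1 and Nr4a3. Further genes low in cycling barcodes were Tnfsf8 (CD30 ligand; 85.6 and 21.0, then 88.4 and 7.71 CPM), Scml4, a Polycomb-like gene (154 and 46.7, then 283 and 67.4 CPM), and Cd274, which encodes PD-L1 (241 and 91.1, then 217 and 80.9 CPM). In 5 of the 12 lowest genes (Tbc1d4, Tcp11l2, Kdm5b, Gpm6b and Tnfsf8), fewer than 10 cycling barcodes per library had a UMI.

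The last comparison set cycling barcodes of WQ-2101 against those of vehicle. Of 6297 measured genes, 678 (10.8%) were at least 1.5-fold higher and 530 (8.42%) lower in WQ-2101. In the more numerous 0-UMI barcodes, the same comparison gave 3.02% higher and 4.32% lower of 5999 genes. Only 38 genes (0.685%) were higher, and 52 (0.938%) lower, in both classes of 5545 measured in both. Few cells make larger ratios by counting error alone, and no replicate is at hand, so the counts are a description of these libraries.

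At a mean of at least 50 CPM, 6 of the 10 genes highest in WQ-2101 were neutrophil or tumour-rich genes, and 9 of the 10 lowest were myeloid genes. The others were Ccl1, Sidt1, Cxcr6 and Klre1 among the highest and Ifit1 among the lowest. Of these, Klre1 stood on the list of natural killer cell genes. Of the 10 highest, S100a8 and S100a9, which are neutrophil genes, were 441 and 466 CPM in WQ-2101 cycling barcodes, but 99.1% and 98.8% of those UMIs came from 1 barcode. The tumour-rich genes Tm4sf1, Tubb3, Nupr1 and Cald1 stood at 112, 156, 96.3 and 127 CPM in WQ-2101 against 16.3, 37.4, 25.7 and 42.0 CPM in vehicle. The 10 lowest held the myeloid genes Arg1, Il1b, Lyz2, Fcgr2b, Cd14, Cxcl2, Fcgr3, Fn1 and Ccl6: Lyz2 was 1090 CPM in vehicle and 208 in WQ-2101. Over the whole lists of other cell types, 16 macrophage genes summed to 3234 CPM in vehicle and 1526 in WQ-2101 cycling barcodes, with 56.8% and 49.2% of their UMIs in 3 barcodes. The 17 tumour genes summed to 2725 and 3661 CPM. Krt8 and Krt18 were at 0 in both, and all 5 erythroid genes were at 0.

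Without barcodes holding RNA of other cells, 730 of 6178 genes (11.8%) were higher and 592 (9.58%) lower, beside 3.56% and 4.9% of 5896 genes in 0-UMI barcodes. In CD8 cycling barcodes alone, 15.4% were higher and 13.5% lower. Barcodes were left out by tumour and myeloid genes only, so RNA of dendritic cells could remain. Antigen presentation genes of dendritic and other cells stood among the 10 highest: H2-Aa, H2-Eb1 and H2-Ab1 were 26.1, 29.0 and 40.6 CPM in vehicle and 333, 328 and 411 CPM in WQ-2101. Over all WQ-2101 cycling barcodes, 1 barcode gave 36.2%, 34.0% and 33.8% of their UMIs. Ccl1 was 14.5 and 330 CPM with UMIs in 3 WQ-2101 barcodes. Cxcr6, a homing receptor of tissue T cells, was 31.9 and 131 CPM (ratio 4.10, 2.13 to 8.66), with a UMI in 11 of 62 vehicle and 37 of 92 WQ-2101 cycling barcodes before any were left out. Havcr2 (TIM-3) was 29.0 and 98.6 CPM, a ratio of 3.40 (1.68 to 7.58); with all barcodes it was 46.7 and 88.6 CPM, a ratio of 1.90 (1.10 to 3.39).

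The cell cycle lists differed little between the cycling barcodes of the libraries, beside a median of 0.02 over all genes. Over all genes 10.8% were higher and 8.42% lower. Their median log2 ratios were 0.12 for spindle and kinetochore (7 of 43 higher, 0 lower), 0.06 for mitotic kinases (1 higher and 1 lower of 31), -0.01 for the replication fork (2 and 3 of 31), 0.23 for licensing (1 and 0 of 18) and -0.22 for histones (0 and 5 of 18). In CD8 cycling barcodes alone the fork list had 6 higher and 0 lower of 30, and a median of 0.16, beside 15.4% and 13.5% of all genes. Without RNA of other cells the spindle and kinetochore list had 4 higher and 0 lower of 44, with a median of 0.05. The medians of the other lists then ran from -0.29 for histones to 0.13 for licensing, beside 11.8% higher and 9.58% lower over all genes. The kinetochore gene Spc25 was 37.4 CPM in vehicle cycling barcodes and 77.1 in WQ-2101 ones, or 2.06-fold (1.13 to 3.95). Dnmt1, which copies DNA methylation, was 88.7 and 148 CPM, a ratio of 1.67 (1.12 to 2.54). E2f1 and its target Ccne2, both of the start of S phase, were 67.7 and 34.7, and 46.7 and 15.4 CPM, with ratios of 0.512 (0.268 to 0.954) and 0.330 (0.126 to 0.782). Tk1 was 128 and 82.9 CPM, a ratio of 0.645 (0.423 to 0.979).

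Some effector and interferon genes differed. Gzma was 264 CPM in vehicle and 592 in WQ-2101 cycling barcodes, a ratio of 2.24 (1.80 to 2.81), with UMIs in 15 of 62 and 28 of 92 barcodes. In 0-UMI barcodes it was 485 and 341 CPM, the opposite order, and that difference between classes was not tested. Of 21 cytotoxicity genes 5 were higher and 4 lower, beside 10.8% and 8.42% of all genes. Xcl1, a chemokine for cross-presenting dendritic cells, was 117 and 30.8 CPM (ratio 0.264, 0.140 to 0.471), and also lower in 0-UMI barcodes, at 210 and 88.4 CPM. Of 10 type I interferon genes 5 were lower and none was higher, with a median of -0.69; Ifit1 was 161 and 38.5 CPM, a ratio of 0.239 (0.138 to 0.398), on UMIs in 13 and 12 barcodes. In CD8 cycling barcodes alone that list had 2 higher and 2 lower of 6 measured, beside 15.4% and 13.5% of all genes. Its median there was 0.28, so its direction did not hold. Cxcl10 was 467 and 166 CPM in cycling and 910 and 512 in 0-UMI barcodes, and thus lower in WQ-2101 in both.

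Of 14 regulatory T cell genes 5 were at least 1.5-fold lower in WQ-2101 cycling barcodes and none was higher, with a median of -0.43, beside the share of Foxp3 barcodes of 17.7% in vehicle and 6.52% in WQ-2101. In 0-UMI barcodes 4 of 17 were lower and none was higher, with a median of -0.38. In CD8 cycling barcodes alone 2 of 10 were higher and 1 lower, beside 15.4% and 13.5% of all genes. Over all genes 8.42% were lower in cycling and 4.32% in 0-UMI barcodes. Ikzf2 was 1004 and 493 CPM, a ratio of 0.491 (0.419 to 0.575). Within Foxp3 cycling barcodes, where it was 2508 and 2408 CPM, its intervals overlapped. Of 12 naive and memory genes 3 were higher and 1, Il7r, was lower, with a median of 0.46. In 0-UMI barcodes 6 of 12 were higher and none was lower, with a median of 0.59. In CD8 cycling barcodes alone 3 of 10 were higher and 1 lower, with a median of 0.23, beside the same shares of all genes as above. Satb1 was 196 and 322 CPM in cycling barcodes, a ratio of 1.64 (1.25 to 2.16), and 398 and 830 CPM in 0-UMI ones. Odc1, the first enzyme of polyamine synthesis and a Myc target, was 778 and 318 CPM in cycling barcodes, a ratio of 0.409 (0.337 to 0.494), and 571 and 377 in 0-UMI ones. Without RNA of other cells it was 879 and 344 CPM. Fewer cells of a type and less RNA per cell cannot be told apart in such summed values.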

How the data were processed

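Droplet 3' single-cell RNA sequencing of whole tumour suspensions was analysed from matrices of whole-number UMI counts, which the authors deposited unnormalised. Cell Ranger 7.2.0 stands in the matrices per the file headers, whereas version 2.2.2 and the build GRCm38 stand in the submitters' processing notes. How intron reads, doublets and free RNA were handled was not found in these sources. The lowest deposited barcode had 500 UMIs, and the libraries held 184754398 (vehicle) and 185587327 (WQ-2101) UMIs.

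The members and all gene lists were chosen with earlier results of these data known. UMIs were summed per library and class and divided by the class total (CPM), with exact Poisson, exact conditional ratio and Clopper-Pearson 95% intervals, and Newcombe intervals for differences of shares. A gene was measured at a mean of 20 CPM, and called higher or lower at 1.5-fold in CPM plus 5. With 1 library per group no test was made. Shares of barcodes were compared after thinning each to 2000 UMIs and leaving out shallower ones. Doublets were not removed, and Scrublet (called 3.83% and 4.17% of scored barcodes) was an alternative. The calculation was tested on simulated data. Named genes were the 12 highest and 12 lowest against 0-UMI barcodes, the 8 highest outside all lists, the 10 highest and lowest between libraries at 50 CPM, the lineage, cyclin and serine genes, and 2 at each end of every list. The same ends without RNA of other cells, the genes given within lineages, and Ldha, Nr4a1, Cdk1 and Ube2c, where outside that rule, were chosen after values were seen. Of the listed genes, 762 were in the files. Alternatives were other thresholds, filters, pseudocounts, depths and cell sets. Python 3.11.15, numpy 2.4.6, scipy 1.17.1, pandas 2.3.3, scanpy 1.11.5, statsmodels 0.14.6 and matplotlib 3.10.9 were used.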

Additional observations from a re-analysis of the deposited data

Results flagged for a closer look

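In 10 named genes the cycling barcodes stood at least 1.5-fold above the 0-UMI barcodes in 1 library and at least 1.5-fold below them in the other. With 1 library per treatment, none of these differences was tested. The values given are log2 ratios of cycling over 0-UMI barcodes on CPM plus 5, and their difference, WQ-2101 minus vehicle. S100a9 had ratios of -4.38 in vehicle and 5.11 in WQ-2101, a difference of 9.49; it had 0 UMIs in vehicle cycling barcodes, so this value depends on the 5 CPM added, and 98.8% of its WQ-2101 UMIs in cycling barcodes lay in 1 barcode. S100a8 had -3.20 and 5.03, a difference of 8.23. The tumour-rich genes Tm4sf1 (-1.26 and 1.33, difference 2.60) and Nupr1 (-0.69 and 0.88, difference 1.57) were higher in cycling barcodes of WQ-2101. The myeloid genes Il1b (0.97 and -1.36, difference -2.33), Cd14 (0.87 and -1.26, difference -2.13), Cxcl2 (0.69 and -1.17, difference -1.86) and Fcgr2b (0.93 and -0.68, difference -1.61) were higher in those of vehicle. Without barcodes holding RNA of other cells, no longer more than 1.5-fold apart in opposite directions in both libraries were Tm4sf1 (-1.11 and 0.38), Nupr1 (-0.29 and -0.60), Il1b (-1.5 and 0.24), Cd14 (-1.67 and -0.51), Cxcl2 (-1.11 and -0.63), S100a8 (-0.36 and -1.56), S100a9 (-0.99 and -0.62) and Fcgr2b (-0.59 and 0.58, on 8.71 and 13.8 CPM in cycling barcodes).

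Lin52 and Hist1h2bc kept opposite directions of at least 1.5-fold without such barcodes. Lin52, a subunit of the DREAM and MuvB complexes that act on cell cycle promoters, had 1.28 in vehicle and -0.73 in WQ-2101, a difference of -2.01, from 86.4 and 21.2 CPM in cycling and 32.5 and 38.4 CPM in 0-UMI barcodes. Without RNA of other cells its ratios were 1.16 and -0.64. The histone gene Hist1h2bc, whose copies can share reads, had 0.94 and -0.59, a difference of -1.52, and 1.27 and -0.76 without RNA of other cells. In vehicle 25.3% of its UMIs in cycling barcodes lay in 1 barcode.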

How the results depend on the processing

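No paired analysis was possible because each treatment has 1 library, and for the same reason no replicate could be left out. All alternatives to the share of cycling barcodes kept the ratio of WQ-2101 over vehicle above 1, from 1.05 to 1.62. The alternatives leaving out RNA of other cells, CD8 barcodes alone and an Hmga2 count of 0 were added after seeing the data. The gene counts follow the filter and the added CPM. With 20 CPM added, 127 genes were lower in cycling barcodes, and 357 were higher and 301 lower in WQ-2101. With no filter beyond 1 UMI, 855 genes were higher and 516 lower in cycling barcodes, and 1520 higher and 1203 lower in WQ-2101. With a filter of 50 CPM these were 272, 131, 250 and 213. Thinning to 2000 UMIs gave 1240 higher and 1123 lower in WQ-2101, and CD8 barcodes alone gave 824 lower. The Cd8a share difference at full depth was 22.2 points in vehicle and 16.3 in WQ-2101, and -9.19 in WQ-2101 at 4000 UMIs. That of Foxp3 in vehicle was 13.6 points at full depth and 15.6 (5.43 to 27.9) at 4000 UMIs, and -7.02 in WQ-2101 at 4000 UMIs. Beside these 20 values, 57 others stayed within 1.5 times or inside the first interval. Depth limits the lineage shares: at 2000 UMIs 30.0% of vehicle and 42.2% of WQ-2101 cycling barcodes showed no lineage gene, against 9.68% and 27.2% at full depth.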
